A study of Mus musculus with 13 samples.

Results

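Cell cycle inhibitors and senescence genes were examined in crypts and adenomas of the mouse small intestine on Affymetrix Mouse Gene 1.0 ST arrays. The 9 genes were Cdkn1a, Cdkn1b, Cdkn1c, Cdkn2a, Cdkn2b, Trp53, Mdm2, Igfbp7 and Lmnb1, each read on every probe set annotated with exactly 1 gene symbol, the brightest over the 13 arrays being the main value. Of these 9 genes 7 had such a probe set, 8 probe sets in all, out of 19938 genes on the array that had one. Cdkn1a had 1 probe set, which carried several symbols, so no value is given for it. Trp53 was not analysed here, since 0 probe sets in the annotation used were assigned to it.

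Every animal was an Apc mutant mouse from a cross to transgenic mice that express FPs, so the normal samples carried the Apc mutation and the transgene too. The groups were 6 samples of normal epithelial cells with low FP expression (FP-low), 4 of normal epithelial cells with high FP expression (FP-high) and 3 intestinal adenomas, with the normal cells taken next to adenomas. Not given in the sources used here are what FP stands for, the promoter behind the transgene, the Apc allele, the ages and which samples share an animal. The spread that the p-values measure is therefore that of these arrays and may be partly technical. The series title concerns signatures of aging that come before tumours, and the labels do not tie FP level to age.

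Cells leave the cell cycle when cyclin-dependent kinases (CDKs) are blocked, and there are families of CDK inhibitors. The Cip/Kip family (Cdkn1a, Cdkn1b, Cdkn1c) binds cyclin and CDK complexes broadly, while the Ink4 family (Cdkn2a, Cdkn2b and others) binds the CDKs that pair with D-type cyclins. The transcription factor p53, product of Trp53, induces Cdkn1a and also Mdm2, the ubiquitin ligase that degrades p53. Senescence is a lasting arrest in which Cdkn1a and Cdkn2a typically go up, lamin B1 (Lmnb1) goes down and many secreted proteins, Igfbp7 among them, are made. In the intestine dividing cells lie in the crypt and arrested, differentiated cells on the villus.

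Promoter sequences are shown for 3 of these genes on which the adenoma arrays did not overlap the normal arrays, as described further on. RefSeq promoter windows of GRCm38.p6 were found for 7 of the 9 genes. Each line gives the 250 bases before an annotated start, 5′ to 3′ on the gene's strand (minus in each case). Capitals mark a GC box, with the letters GGGCGG, or a CCAAT box, named for its letters. The TATA box, with the letters TATAAA, was searched too. Each was searched on both strands, so that a match on the other strand shows as its reverse complement, and no match within a window overlapped another. Cdkn2a has alternative first exons, and its starts lie at different places: the upstream one gives the Arf transcript and the downstream one the Ink4a transcript. The single Cdkn2a probe set is annotated to transcripts of both kinds, so its value cannot be assigned to either.
Igfbp7, chr5:77408046-77408295: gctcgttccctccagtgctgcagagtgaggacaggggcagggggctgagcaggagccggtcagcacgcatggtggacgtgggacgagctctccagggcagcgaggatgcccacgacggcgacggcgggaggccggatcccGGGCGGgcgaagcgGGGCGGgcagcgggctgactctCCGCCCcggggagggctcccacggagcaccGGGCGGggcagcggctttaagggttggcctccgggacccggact
Mdm2, chr10:117710759-117711008: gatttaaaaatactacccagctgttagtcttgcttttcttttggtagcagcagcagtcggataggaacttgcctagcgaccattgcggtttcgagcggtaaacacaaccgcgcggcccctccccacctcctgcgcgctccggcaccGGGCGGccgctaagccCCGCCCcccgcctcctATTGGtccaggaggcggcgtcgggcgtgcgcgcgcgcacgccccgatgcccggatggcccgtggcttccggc
Cdkn2a, Arf start, chr4:89294620-89294869: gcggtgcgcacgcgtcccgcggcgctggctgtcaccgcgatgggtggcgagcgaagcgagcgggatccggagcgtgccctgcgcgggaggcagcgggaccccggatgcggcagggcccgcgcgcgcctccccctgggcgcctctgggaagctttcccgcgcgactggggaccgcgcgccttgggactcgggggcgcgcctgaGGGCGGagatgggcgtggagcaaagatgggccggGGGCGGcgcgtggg
Cdkn2a, Ink4a start, chr4:89282193-89282442: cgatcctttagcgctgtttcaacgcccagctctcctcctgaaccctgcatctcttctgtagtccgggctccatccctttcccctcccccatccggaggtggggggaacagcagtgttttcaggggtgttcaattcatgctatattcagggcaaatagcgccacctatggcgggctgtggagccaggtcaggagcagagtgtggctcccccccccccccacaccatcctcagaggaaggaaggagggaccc
The Igfbp7 window held 4 GC boxes. That of Mdm2 held 2 GC boxes and 1 CCAAT box, that of Arf 2 GC boxes and that of Ink4a 0 of either. Over all 32851 windows of 250 bases, 32.7% held a GC box, 33.8% a CCAAT box and 12.4% a TATA box, which none of these 4 windows held. These matches describe the letters only.

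The arrays were alike in overall level, with medians of 4.55 to 4.65 on the log2 scale over the tested probe sets. FP-high replicate 1 stood apart: its log2 values had an SD of 1.21, against 1.89 to 2.10 in the other 12 arrays, so the values that it moves most are given with and without it. Leaving it out was chosen for the related gene lists and markers after seeing the data. Without it 1.58% of all probe sets passed between adenoma and FP-low, 1.1% between adenoma and FP-high, 2.08% between adenoma and the normal mean and 0% between FP-high and FP-low. Epithelial markers, 9 genes such as Epcam and Cdh1, had a mean log2 level of 8.01 to 8.89 in FP-low, 6.43 to 8.96 in FP-high and 8.34 to 8.94 in adenoma arrays, the lowest being FP-high replicate 1. Xist, expressed in female cells, was at 8.64 or higher in all 3 adenomas and in 2 normal arrays (FP-high replicate 4 and FP-low replicate 6), and at 3.61 or lower in the other 8. In samples of many cells, fewer cells of a type and less RNA per cell cannot be told apart.

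In adenomas Igfbp7 rose to about double its FP-low level, the only 1 of the 7 measured genes to pass the test, while Mdm2 lay above and Cdkn2a below every normal array without passing. Between FP-high and FP-low epithelium 0 of 7 passed, although Lmnb1 stood at 0.454 times its FP-low level (difference of log2 means -1.14). Cdkn1b, the brightest of the probe sets, differed mainly through FP-high replicate 1. Cdkn1c and Cdkn2b had group means within about 0.5 log2 units of each other. A gene passed when its adjusted p was under 0.05 (limma, Benjamini and Hochberg over 23410 probe sets). Over all tested probe sets 0% passed between FP-high and FP-low, 0.551% between adenoma and FP-low, 0.765% between adenoma and FP-high and 0.91% between adenoma and the mean of the normal groups. At an unadjusted p under 0.05 there were 1 of 7 genes between FP-high and FP-low (12.7% of all probe sets), 3 of 7 between adenoma and FP-low (7.45%), 3 of 7 between adenoma and FP-high (15.7%) and 2 of 7 between adenoma and the normal mean (10.6%). By sign alone, 4 of 7 genes had a higher mean in FP-high than in FP-low (56.3% of all probe sets were higher and 43.7% lower). In adenomas 5 of 7 were higher against FP-low (39% higher, 61% lower over all), 5 of 7 against FP-high (40.4% and 59.6%) and 5 of 7 against the normal mean (38.1% and 61.9%). The 3 adenoma comparisons share the adenoma arrays, and comparisons with FP-low share those arrays.

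**Figure D1:**
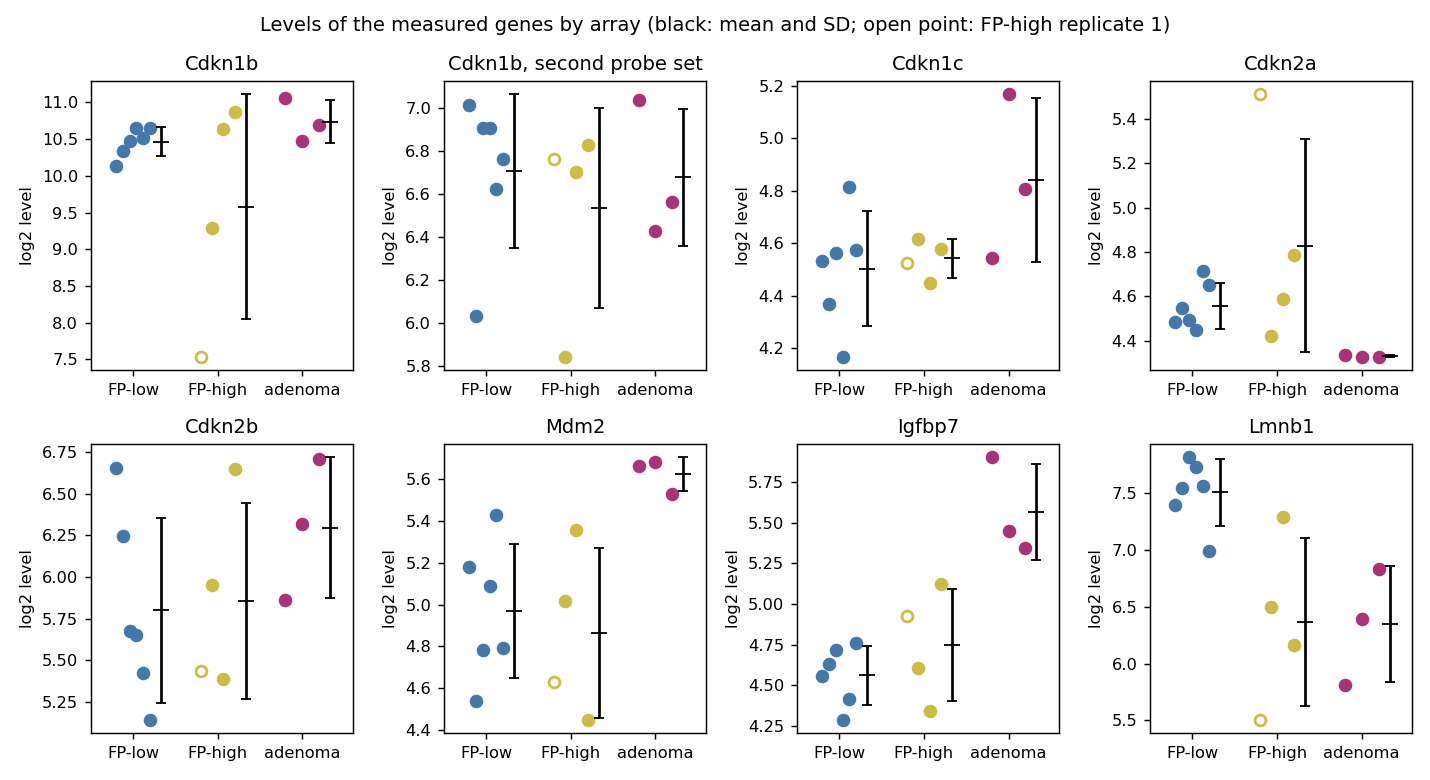
Log2 level of each measured probe set (vertical axis) in every array of the FP-low (n = 6), FP-high (n = 4) and adenoma (n = 3) groups; points are arrays, black marks the mean and SD, and the open point is FP-high replicate 1. Igfbp7 and Mdm2 lie higher in the 3 adenomas than in all 10 normal arrays, Cdkn2a lies lower, and the vertical axis differs between panels.

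Igfbp7 encodes a secreted protein that binds insulin-like growth factors weakly and is made by senescent cells as well as by vessels and connective tissue. Its probe set (10530841) read 4.56, 4.63, 4.72, 4.29, 4.42 and 4.76 in FP-low replicates 1 to 6, and 4.92, 4.61, 4.34 and 5.12 in FP-high replicates 1 to 4, all as log2 levels. In adenoma replicates 1, 2 and 3 it read 5.90, 5.45 and 5.35. All 3 adenomas lay above all 10 normal arrays, whereas the normal groups overlapped. Within its array Igfbp7 ranked at percentiles 43.1 to 54.5 in FP-low, 43.4 to 64.1 in FP-high and 67.8 to 76.7 in adenoma arrays. The FP-low levels thus lay near the array medians, and without detection calls they cannot be read against background. The order of the means was FP-low (4.56 ± 0.18, SD, n = 6), FP-high (4.75 ± 0.35, n = 4) and adenoma (5.57 ± 0.30, n = 3).

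Against FP-low the adenomas were higher by 1.00 ± 0.19 (SE) on the log2 scale, a fold of 2.01 (limma, adjusted p = 0.0396). Against the mean of the normal groups the difference was 0.91 ± 0.18 (adjusted p = 0.0360). The difference from FP-high, 0.82 ± 0.21, did not pass (adjusted p = 0.111; 0.87 and 0.0794 without FP-high replicate 1), nor did that between FP-high and FP-low, 0.19 ± 0.18 (95% confidence interval -0.20 to 0.57, adjusted p = 0.566). Across all probe sets 0.534% passed as higher in adenoma against FP-low and 0.884% against the normal mean.

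The call of Igfbp7 was close to the threshold. Without FP-high replicate 1 the adjusted p against FP-low was 0.0176, while the difference of 1.00 could not change, since FP-high arrays do not enter it. It lost its call without any 1 of the adenoma arrays (adjusted p = 0.287, 0.134 and 0.0569 without replicates 1, 2 and 3), without FP-high replicate 2 (0.0594) or without any 1 of the FP-low arrays (0.0538 to 0.0956). The estimate in these fits ran from 0.83 to 1.11. Against the normal mean the call was lost without any 1 of the adenoma arrays, FP-high replicate 2 or FP-low replicates 1, 2, 4 or 5 (adjusted p = 0.0579 to 0.28), and the estimate ran from 0.74 to 1.02. Against FP-low the replicate number as a block gave 1.04 (adjusted p = 0.304), and with all 35556 rows of the table tested the adjusted p was 0.0517. The call against FP-low held with array weights (0.95, adjusted p = 0.00314) and with the compared groups alone (adjusted p = 0.0121). It held too with an intensity trend (0.026), quantile normalization (0.0481) and the filter on low levels (0.0484). With array weights the difference from FP-high passed as well (0.84, adjusted p = 0.0309), where 2.54% of all probe sets passed.

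**Figure D2:**
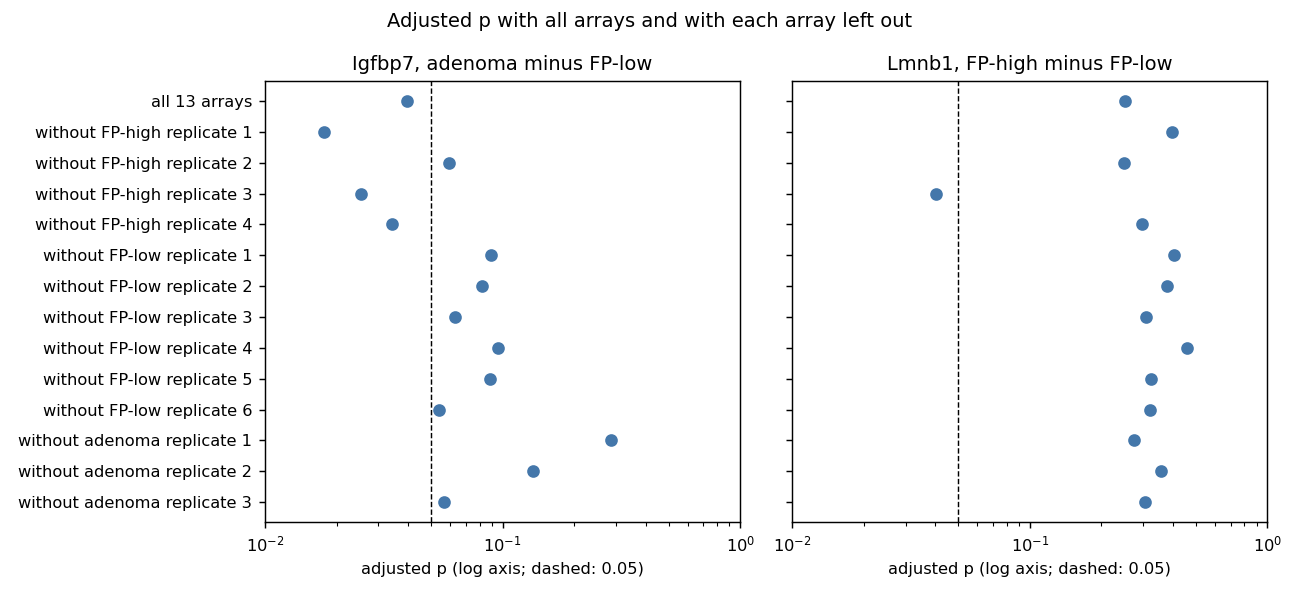
Adjusted p (horizontal log axis, dashed line at 0.05) from limma with all 13 arrays and with each array left out (vertical axis), for Igfbp7 in adenoma against FP-low on the left and Lmnb1 in FP-high against FP-low on the right. Igfbp7 passes with the 13 arrays together (0.0396) and when FP-high replicate 1, 3 or 4 is left out, and Lmnb1 passes only when FP-high replicate 3 is (0.0402).

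Other transcripts differed alongside Igfbp7. Among normal arrays it was highest within each group in the pair with high Xist, at 5.12 in FP-high replicate 4 and 4.76 in FP-low replicate 6. With Xist status as a covariate the difference between adenoma and FP-low was 0.70 ± 0.25 (adjusted p = 0.787). Of 9 fibroblast markers 2 passed as higher in adenoma against FP-low and none as lower, namely Dcn (log2 difference 2.46, adjusted p = 0.0410) and Sparc (1.39, adjusted p = 0.0306), which encode matrix proteins. Other members of that list did not follow: Col1a1 was at 5.42 to 5.61 in adenomas and 5.31 to 5.78 in FP-low arrays. Col1a2 lay lower in adenomas (4.87 to 5.19) than in all FP-low (5.24 to 5.71) and FP-high arrays (5.26 to 5.63). By sign 4 of the 9 had a higher mean in adenoma than in FP-low, and the median was -0.06. The summed linear level of the 9 markers was 542.7, 349.9 and 274.4 in adenoma replicates 1, 2 and 3, the same order as Igfbp7, against 233 to 302.4 in FP-low and 247.8 to 309.7 in FP-high arrays. The sum of adenoma replicate 3 lay within the normal range. Dcn (4.41 to 7.62 in adenomas, at most 4.07 in normal arrays) and Sparc (5.42 to 6.66, at most 5.07) lay above all 10 normal arrays in each adenoma, as Igfbp7 did.

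Markers of vessels that did not pass with all arrays included some that lay apart, in both directions. The endothelial cadherin Cdh5 read 4.81 to 5.28 in adenomas and 3.98 to 4.51 in FP-low arrays (log2 difference 0.88, adjusted p = 0.129), and endomucin, Emcn, 3.32 to 4.05 and 2.76 to 3.18 (0.75, adjusted p = 0.196). The pericyte gene Rgs5 read 3.84 to 4.94 and 3.05 to 3.45 (1.10, adjusted p = 0.127). In all 3 the adenomas lay above every FP-low array, and without FP-high replicate 1 each of them passed against FP-low. They overlapped the FP-high arrays, which read 4.23 to 5.05 for Cdh5, 2.78 to 3.65 for Emcn and 3.30 to 4.45 for Rgs5. Plvap, also an endothelial marker, went the other way: it read 4.57 to 4.78 in adenomas, 4.87 to 5.59 in FP-low and 4.79 to 5.35 in FP-high arrays. By sign 4 of 9 endothelial markers had a higher mean in adenomas than in FP-low (median -0.09). Of the smooth muscle and pericyte markers 3 of 8 did (median -0.04). With all arrays 0 of 9 endothelial markers passed by limma, and their summed linear level was 160.5 to 183.7 in adenomas, 149.6 to 192.8 in FP-low and 151.6 to 209.8 in FP-high arrays. Of 8 markers of smooth muscle and pericytes 0 passed, with sums of 125.5 to 172.2, 113.7 to 147.3 and 120.5 to 212.9 in the same order. Of 7 T lymphocyte markers only Ptprc, the pan-leukocyte phosphatase, passed as higher (log2 difference from the normal mean 0.79, limma, adjusted p = 0.0393). Ptprc was also the only 1 of the 7 with a higher mean there, and the median of the list was -0.44. The sums of the 7 were 184.1 to 391.8 in adenomas, 139.9 to 609.7 in FP-low and 217.6 to 1276 in FP-high arrays. Of 8 myeloid markers 0 passed with all arrays, and 4 had a higher mean in adenoma than in FP-low (median 0.04). Among them Lyz2 read 6.35 to 7.75 in adenomas and 8.35 to 10.43 in FP-low arrays, and it passed as lower without FP-high replicate 1. The part of all these cells in the Igfbp7 difference was not tested.

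The genes whose log2 levels ran most like Igfbp7 over the 13 arrays, out of 19937 others, were Gpr137b-ps (Pearson r = 0.951), Ecscr (0.945) and Il1b (0.937). Without FP-high replicate 1 these values were 0.952, 0.945 and 0.949, and within the 6 FP-low arrays 0.813, 0.647 and 0.921. The points share group structure and array processing, so the values are a description.

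Mdm2 is induced by p53 and in turn limits it. Its probe set (10372668) read 5.18, 4.54, 4.78, 5.09, 5.43 and 4.79 in FP-low replicates 1 to 6, and 4.63, 5.02, 5.36 and 4.45 in FP-high replicates 1 to 4. Adenoma replicates 1, 2 and 3 stood at 5.66, 5.68 and 5.53. The adenomas did not overlap either normal group, although the nearest FP-low array (replicate 5) was only about 0.1 below the lowest adenoma. Group means were 4.86 ± 0.41 in FP-high (SD, n = 4), 4.97 ± 0.32 in FP-low (n = 6) and 5.63 ± 0.08 in adenoma arrays (n = 3).

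The Mdm2 difference was 0.66 ± 0.22 (SE) against FP-low and 0.76 ± 0.24 against FP-high, neither past the threshold (limma, adjusted p = 0.407 and 0.203). Without FP-high replicate 1 the latter was 0.69 (adjusted p = 0.218). Against the normal mean it was 0.71 ± 0.21, a fold of 1.64 (adjusted p = 0.200). With array weights, which count an outlying array for less, Mdm2 passed against FP-low (0.69, adjusted p = 0.0476) and against the normal mean (0.67, adjusted p = 0.0375), where 3.71% and 4.93% of all probe sets then passed. FP-high and FP-low differed by -0.11 (95% confidence interval -0.55 to 0.34, adjusted p = 0.784).

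Genes that p53 activates were read from a list of 28, of which 26 had a probe set. Of these, 1 passed as higher in adenomas against the normal mean, the polo-like kinase Plk2 (log2 difference 1.47 ± 0.30, adjusted p = 0.0408), and none as lower. Without FP-high replicate 1 it passed against FP-low too (1.47, adjusted p = 0.0497). By sign 13 had a higher mean and 13 a lower one. Their median was -0.02, against -0.09 over all tested probe sets. Against FP-low or FP-high alone 0 of 26 passed by limma (5 and 7 at an unadjusted p under 0.05, with 2 and 4 of them higher). Between FP-high and FP-low 0 of 26 passed and the median was 0.03, with Phlda3, an inhibitor of Akt signalling, at the smallest p (0.38 ± 0.14, adjusted p = 0.369). Of 14 measured regulators and relatives of p53, 0 passed in any of the 4 comparisons by limma. The smallest p belonged to the checkpoint kinase Chek1 between FP-high and FP-low (-1.34 ± 0.41, adjusted p = 0.291; -1.12 without FP-high replicate 1). In adenomas it belonged to Rchy1, a ubiquitin ligase, against the normal mean (1.21 ± 0.51, adjusted p = 0.423) and against FP-low (1.18 ± 0.55, adjusted p = 0.671). Against FP-high it belonged to Cop1, another such ligase (1.01 ± 0.46, adjusted p = 0.315; 0.48 without FP-high replicate 1).

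Cdkn2a encodes the Ink4a inhibitor and, from an overlapping reading frame, Arf, which blocks Mdm2. Its probe set (10514340) read 4.48, 4.55, 4.49, 4.45, 4.71 and 4.65 in FP-low replicates 1 to 6, and 5.51, 4.42, 4.59 and 4.79 in FP-high replicates 1 to 4. Adenoma replicates 1, 2 and 3 read 4.34, 4.33 and 4.33, with an SD of 0.0045. All 3 adenomas were below all 10 normal arrays. The gap to the lowest normal array, FP-high replicate 2, was under 0.1 on the log2 scale, and such small differences near the array median of 4.55 to 4.65 cannot be read against a detection call, which the table does not hold.

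The Cdkn2a difference from FP-low was -0.23 ± 0.20 (SE, limma, adjusted p = 0.935), that from FP-high -0.50 ± 0.21 (adjusted p = 0.300) and that from the normal mean -0.36 ± 0.19 (adjusted p = 0.515). FP-high replicate 1, at 5.51, was well above the 4.42 to 4.79 of the other FP-high arrays. It also ranked high within its own array, at percentile 82.7 of the tested probe sets, whereas Cdkn2a lay between percentiles 42.6 and 54.2 in the other 12. The FP-high minus FP-low difference was 0.27 ± 0.18 with that array (adjusted p = 0.450) and 0.04 ± 0.11 without it (adjusted p = 0.949). Without it the difference between adenoma and FP-high was -0.27 ± 0.12 (adjusted p = 0.310).

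Cdkn2b, the neighbouring Ink4 gene and a target of TGF-beta signalling, varied as much within groups as between them. Its probe set (10514347) read 6.65, 6.25, 5.68, 5.65, 5.42 and 5.14 in FP-low replicates 1 to 6, and 5.43, 5.95, 5.39 and 6.65 in FP-high replicates 1 to 4. Adenoma replicates 1, 2 and 3 read 5.86, 6.32 and 6.71. All 3 groups overlapped, and the means were 5.80 ± 0.55, 5.85 ± 0.59 and 6.30 ± 0.42 (SD). The adenomas differed from FP-low by 0.50 (95% confidence interval -0.27 to 1.26, limma, adjusted p = 0.878) and from FP-high by 0.44 (-0.39 to 1.27, adjusted p = 0.501). FP-high and FP-low differed by 0.06 (-0.64 to 0.75, adjusted p = 0.934).

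Counted together over the 7 genes, the arrays of adenoma and all normal samples did not overlap for 2 higher genes (Igfbp7 and Mdm2) and 1 lower gene (Cdkn2a). Over all tested probe sets 1.93% were higher and 2.04% lower in that sense. Against FP-low alone Lmnb1 joined the lower side, with 2 higher and 2 lower genes of 7 (3.67% and 5.64% of all probe sets). Against FP-high alone there were 2 higher and 1 lower (6.74% and 10.4%). Between FP-high and FP-low all 7 genes overlapped, where 0.743% of probe sets were higher and 1.51% lower without overlap.

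**Figure D3:**
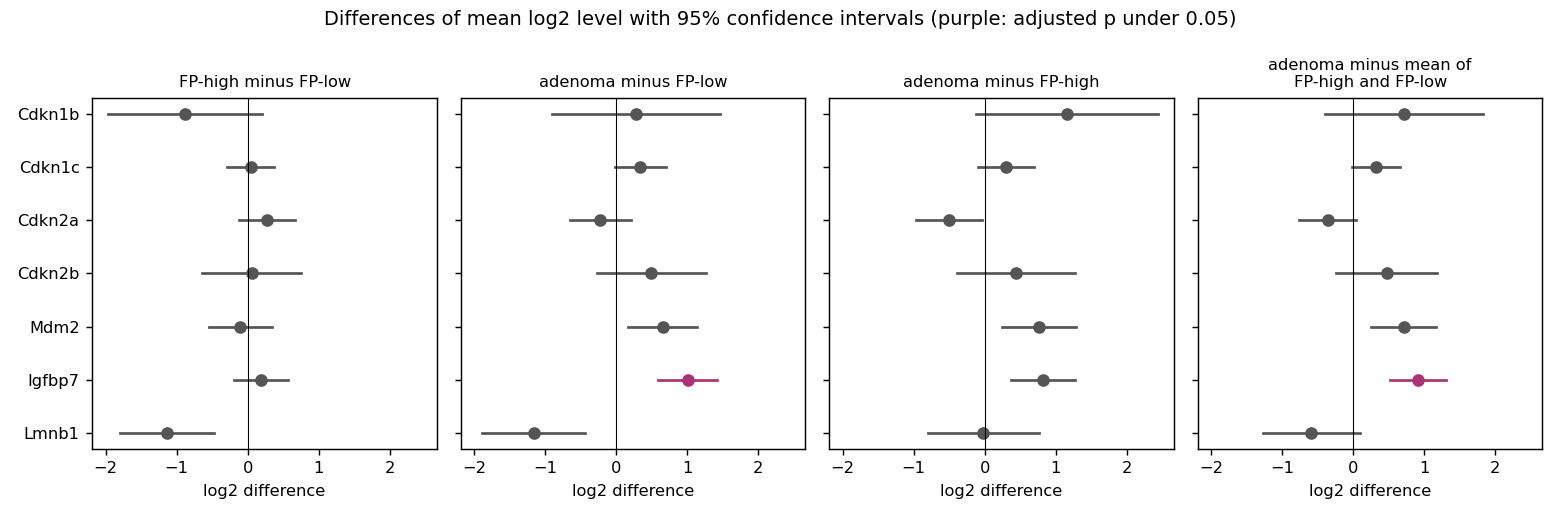
Difference of mean log2 level (horizontal axis) for the 7 measured genes (vertical axis) in 4 comparisons; points are estimates from limma, lines 95% confidence intervals, and purple marks an adjusted p under 0.05. Purple appears for Igfbp7 in adenoma against FP-low (1.00) and against the mean of the normal groups (0.91), and the widest intervals are those of Cdkn1b.

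Cdkn1b encodes a Cip/Kip inhibitor that holds cells in quiescence and is removed by the Skp2 and Cks1b ubiquitin machinery. Its main probe set (10542317) read 10.14, 10.34, 10.47, 10.65, 10.52 and 10.65 in FP-low replicates 1 to 6, and 7.53, 9.28, 10.64 and 10.86 in FP-high replicates 1 to 4. Adenoma replicates 1, 2 and 3 read 11.05, 10.48 and 10.69. The FP-high arrays spanned the whole range, with replicates 1 and 2 below and replicate 4 above all FP-low arrays. In FP-high replicate 1 the level of 7.53 lay at percentile 97 of that array, and in the other 12 arrays the gene lay between percentiles 95.6 and 98.7.

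FP-high and FP-low differed in Cdkn1b by -0.88 ± 0.50 (SE, limma, adjusted p = 0.412) and, without FP-high replicate 1, by -0.20 ± 0.29 (adjusted p = 0.897). The difference between adenoma and FP-high went from 1.16 ± 0.59 (adjusted p = 0.344) to 0.48 ± 0.33 (adjusted p = 0.503). Adenoma and FP-low differed by 0.28 (95% confidence interval -0.91 to 1.46, adjusted p = 0.995). The dimmer Cdkn1b probe set (10542310) read 6.03 to 7.01 in FP-low, 5.84 to 6.83 in FP-high and 6.43 to 7.04 in adenoma arrays. Its differences were -0.17 ± 0.24 between FP-high and FP-low (adjusted p = 0.695) and -0.03 ± 0.26 between adenoma and FP-low (adjusted p = 0.997). The probe sets thus gave different signs for adenoma against FP-low, neither past the threshold.

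Cdkn1c encodes the imprinted Cip/Kip inhibitor. Its probe set (10569429) read 4.17 to 4.82 in FP-low arrays, with a median of 4.55. The FP-high arrays read 4.53, 4.62, 4.45 and 4.58, and the adenomas 4.54, 5.17 and 4.81. Only adenoma replicate 2 lay clearly above the normal range. The adenomas differed from FP-low by 0.34 (95% confidence interval -0.02 to 0.70, limma, adjusted p = 0.71) and from FP-high by 0.30 (-0.09 to 0.69, adjusted p = 0.387). FP-high and FP-low differed by 0.04 (-0.29 to 0.37, adjusted p = 0.898).

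Regulators that set the amount of these inhibitors were read from a list of 15 genes, all measured. None passed in any comparison by limma, with 2, 2, 4 and 3 at an unadjusted p under 0.05 in FP-high against FP-low and in adenoma against FP-low, FP-high and the normal mean. Cks1b, the Skp2 cofactor for Cdkn1b, had the smallest p in 2 of them: its mean was 9.71 ± 0.41 (SD) in FP-low, 8.24 ± 0.76 in FP-high and 9.56 ± 0.12 in adenoma arrays. The difference was -1.47 ± 0.30 (SE) between FP-high and FP-low (adjusted p = 0.149) and 1.32 ± 0.36 between adenoma and FP-high (adjusted p = 0.140). These were -1.16 (adjusted p = 0.228) and 1.01 (adjusted p = 0.135) without FP-high replicate 1. Bmi1, the Polycomb repressor of Cdkn2a, was the smallest in adenoma against FP-low (0.95 ± 0.39, adjusted p = 0.57) and against the normal mean (0.98 ± 0.36, adjusted p = 0.338). The other CDK inhibitors on the array, Cdkn2c and Cdkn2d, and the phosphatase Cdkn3 also gave 0 calls of 3 in every comparison, and 0 at an unadjusted p under 0.05. Cdkn3 was at -0.52 ± 0.58 between FP-high and FP-low (adjusted p = 0.623) and at -0.0161 when FP-high replicate 1 was left out. Cdkn2d was at -0.30 ± 0.21 between adenoma and FP-low (adjusted p = 0.881), -0.18 ± 0.23 between adenoma and FP-high (adjusted p = 0.650; -0.0624 without FP-high replicate 1) and -0.24 ± 0.20 between adenoma and the normal mean (adjusted p = 0.645).

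Lmnb1 encodes lamin B1, a protein of the nuclear lamina whose loss is a common mark of senescence and whose level is also low in many resting cells. Its probe set (10455813) read 7.40, 7.54, 7.82, 7.72, 7.56 and 6.99 in FP-low replicates 1 to 6, and 5.51, 6.50, 7.29 and 6.16 in FP-high replicates 1 to 4. Adenoma replicates 1, 2 and 3 read 5.81, 6.39 and 6.83. The adenomas lay below all FP-low arrays, and FP-high replicates 1, 2 and 4 did too, while FP-high replicate 3 lay within the FP-low range. FP-high replicate 1, lowest in level, was not lowest by rank within its own array. Among the tested probe sets of each array Lmnb1 was at percentiles 82.6, 84.1, 88 and 81.8 in FP-high replicates 1 to 4. It was at 75.4, 81.4 and 84.8 in adenoma replicates 1 to 3 and at 86.9 to 91.8 in FP-low arrays. Means were 7.50 ± 0.29 in FP-low (SD, n = 6), 6.37 ± 0.74 in FP-high (n = 4) and 6.35 ± 0.51 in adenoma arrays (n = 3).

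FP-high differed from FP-low in Lmnb1 by -1.14 ± 0.31 (SE, limma, adjusted p = 0.251; -0.85 ± 0.27 and adjusted p = 0.395 without FP-high replicate 1). Leaving out FP-high replicate 3 instead gave -1.45, which passed (adjusted p = 0.0402), and 0.581% of all probe sets then passed, against 0% with all arrays. Adenomas differed from FP-low by -1.16 ± 0.34 (adjusted p = 0.240). This passed with array weights (-1.05, adjusted p = 0.0199) and when only the adenoma and FP-low arrays were fitted (-1.16, adjusted p = 0.0453, with 1.47% of all probe sets passing). It did not pass after quantile normalization (-1.17, adjusted p = 0.0743) or with the replicate block (-1.29, adjusted p = 0.196). With Xist status as a covariate it was -0.78 ± 0.45 (adjusted p = 0.9998). The lowest FP-low array in Lmnb1, replicate 6 (6.99), had high Xist. The lowest FP-high array, replicate 1 (5.51), had low Xist. Adenoma and FP-high differed by -0.02 (95% confidence interval -0.80 to 0.76, adjusted p = 0.977), and both differences from FP-low share the FP-low arrays.

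Over all arrays, though not within the FP-low group, Lmnb1 levels went with those of genes of dividing cells. The mean log2 level of 20 proliferation genes was 6.66 to 7.11 in FP-low arrays, 5.22, 6.31, 6.57 and 5.95 in FP-high replicates 1 to 4, and 6.44, 6.33 and 6.82 in adenoma replicates 1 to 3. Over the 13 arrays Lmnb1 and this mean had r = 0.82, without FP-high replicate 1 r = 0.741, and within the 6 FP-low arrays r = -0.342, as a description of points that share group structure and processing. The mean of each of the 20 proliferation genes was lower in FP-high than in FP-low samples (median -0.92, against 0.05 over all tested probe sets), a shift known before these genes were listed. None passed by limma, and 16 had an unadjusted p under 0.05. Mcm4, a subunit of the replicative helicase, had the smallest p (-1.23 ± 0.23, adjusted p = 0.140). With FP-high replicate 1 left out, all 20 remained lower in mean, the median was -0.71, 11 had an unadjusted p under 0.05 and Mcm4 was at -0.98 (adjusted p = 0.170).

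Markers of other cells differed alongside Lmnb1 and the proliferation genes. In FP-high against FP-low samples 9 of 9 enterocyte markers had a higher mean, with a median of 0.89 and, without FP-high replicate 1, 1.58, none of them past the threshold (limma). The mean log2 level of these markers, which include Fabp1, Sis and Alpi, was 7.0, 10.16, 10.81 and 8.65 in FP-high replicates 1 to 4, 6.79 to 9.55 in FP-low and 8.23 to 8.52 in adenoma arrays. FP-high replicates 2 and 3 thus lay above every FP-low array in enterocyte markers and replicate 1 near the lowest. Of 7 T lymphocyte markers 7 had a higher mean in FP-high (median 0.32, or 0.45 without FP-high replicate 1; 0 passed). The epithelial median was -0.50 over 9 markers, and -0.12 without FP-high replicate 1. The part of these cells in the Lmnb1 and proliferation differences was not tested.

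**Figure D4:**
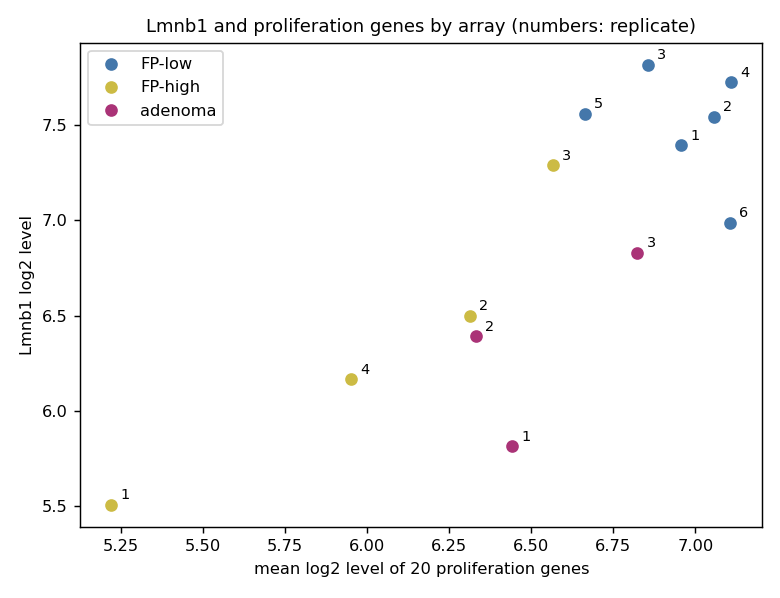
Log2 level of Lmnb1 (vertical axis) against the mean log2 level of 20 proliferation genes (horizontal axis) in each of the 13 arrays, coloured by group and numbered by replicate. FP-high replicate 1 is lowest on both axes (5.22 and 5.51), and adenoma replicate 1 has a lower Lmnb1 level (5.81) than FP-high replicates 2, 3 and 4 although its proliferation mean (6.44) lies among theirs. By percentile within the array, Lmnb1 in FP-high replicate 1 (82.6) is above FP-high replicate 4 (81.8) and adenoma replicates 1 and 2 (75.4 and 81.4).

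In adenomas 19 of the 20 proliferation genes had a lower mean than in FP-low samples (median -0.45) and 17 a higher one than in FP-high samples (median 0.47), with 0 calls by limma in both and 2 and 4 genes at an unadjusted p under 0.05. The smallest p belonged to the spindle checkpoint kinase Bub1b against FP-low (-0.93 ± 0.40, adjusted p = 0.627) and to Mcm4 against FP-high (1.14 ± 0.27, adjusted p = 0.0869). The median against FP-high was smaller when FP-high replicate 1 was left out, at 0.20 with 15 genes higher, and Mcm4 was at 0.89 (adjusted p = 0.0773). Against the normal mean the proliferation median was -0.02 and Mcm4 stood at 0.52 ± 0.24 (adjusted p = 0.463). The Lmnb1 means of adenoma and FP-high arrays were nearly equal, and without FP-high replicate 1 they differed by -0.31 (adjusted p = 0.658).

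CDKs, cyclins, pocket proteins and E2F factors, the targets and partners of the inhibitors, gave 0 calls of 25 measured in each comparison, with 11, 3, 4 and 2 at an unadjusted p under 0.05 in FP-high against FP-low and in adenoma against FP-low, FP-high and the normal mean. Between FP-high and FP-low 21 of 25 had a lower mean and the median was -0.59. Cyclin A2 (Ccna2) had the smallest p (-1.37 ± 0.38, limma, adjusted p = 0.256). Leaving out FP-high replicate 1 gave a median of -0.33 with 20 of 25 lower, and Ccna2 was at -0.91 (adjusted p = 0.356). In adenomas the cyclin Ccne2 was at 1.02 ± 0.40 against FP-low (adjusted p = 0.524), and E2f5, a repressor of the E2F family, was at 1.58 ± 0.35 against FP-high (adjusted p = 0.0648) and 1.17 ± 0.31 against the normal mean (adjusted p = 0.130).

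Other genes of the nuclear envelope were listed together with the chromatin proteins Hmgb1 and Hmgb2, 14 genes in all. They gave 0 calls of 14 in every comparison, with 5, 2, 3 and 2 at an unadjusted p under 0.05 in the same order. Between FP-high and FP-low 12 of 14 had a lower mean (median -0.51), or 11 of 14 without FP-high replicate 1 (median -0.25). Hmgb1 (-0.64) and Hmgb2 (-0.48) were among the 12. Lbr, the lamin B receptor, was at -1.50 ± 0.43 between FP-high and FP-low (limma, adjusted p = 0.263; -1.0 without FP-high replicate 1) and -1.20 ± 0.47 between adenoma and FP-low (adjusted p = 0.524, or 0.0925 without that array). It read 7.76 to 8.71 in FP-low arrays, 4.97, 6.48, 7.87 and 6.63 in FP-high replicates 1 to 4, and 6.54, 6.48 and 7.35 in adenoma replicates 1 to 3. As with Lmnb1, the adenomas lay below all FP-low arrays and FP-high replicate 3 lay within them. Lmna, which encodes the A-type lamins, was at 0.59 ± 0.24 between adenoma and FP-high (adjusted p = 0.275; 0.34 without FP-high replicate 1), and Sun2, a nuclear membrane linker, at -0.34 ± 0.15 between adenoma and the normal mean (adjusted p = 0.450).

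The genes most like Lmnb1 over the 13 arrays were Hnrnpa2b1 (Pearson r = 0.934), Kpnb1 (0.933) and Ncl (0.932), which encode an RNA-binding protein, an importin and the nucleolar protein nucleolin. Without FP-high replicate 1 these values were 0.91, 0.90 and 0.91, and within the FP-low arrays 0.89, 0.73 and 0.83.

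Secreted factors that senescent cells release were read from a list of 29, of which 26 were measured. In adenomas 2 passed as higher against FP-low and against the normal mean and 0 as lower: the matrix metalloproteinase Mmp10 (2.45 ± 0.33 against FP-low, adjusted p = 0.00392; 2.46 ± 0.31 against the normal mean, adjusted p = 0.00199) and fibronectin, Fn1 (1.34 ± 0.23, adjusted p = 0.0194; 1.22 ± 0.22, adjusted p = 0.0187). Against FP-high Mmp10 alone passed (2.46 ± 0.36, limma, adjusted p = 0.00747), where 0.748% of all probe sets passed as higher. Fn1 passed there too once FP-high replicate 1 was left out. Both are also known from remodelling matrix outside senescence. The other 24 genes did not pass, and the median of the list was 0.18 against FP-low (22 of 26 higher) and 0.12 against the normal mean (20 of 26 higher), where the median over all tested probe sets was -0.06 and -0.09. Between FP-high and FP-low 0 of 26 passed, and 0 had an unadjusted p under 0.05; 19 had a higher mean, and Cxcl2, a neutrophil chemokine, had the smallest p (0.88 ± 0.47, adjusted p = 0.401; 0.22 without FP-high replicate 1). The fibroblast and vessel markers given above for Igfbp7 apply to Fn1 as well, which fibroblasts make, and their part was not tested.

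Among 7 other IGF binding proteins and Igfbp-like genes none passed in any comparison by limma, with 1, 1, 2 and 3 at an unadjusted p under 0.05. Igfbp4 was at -0.45 ± 0.18 between FP-high and FP-low (adjusted p = 0.389; -0.25 without FP-high replicate 1), 0.70 ± 0.22 between adenoma and FP-high (adjusted p = 0.199; 0.50 without it) and 0.47 ± 0.19 against the normal mean (adjusted p = 0.398). Igfbp2 was at -0.55 ± 0.22 between adenoma and FP-low (adjusted p = 0.578).

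**Figure D5:**
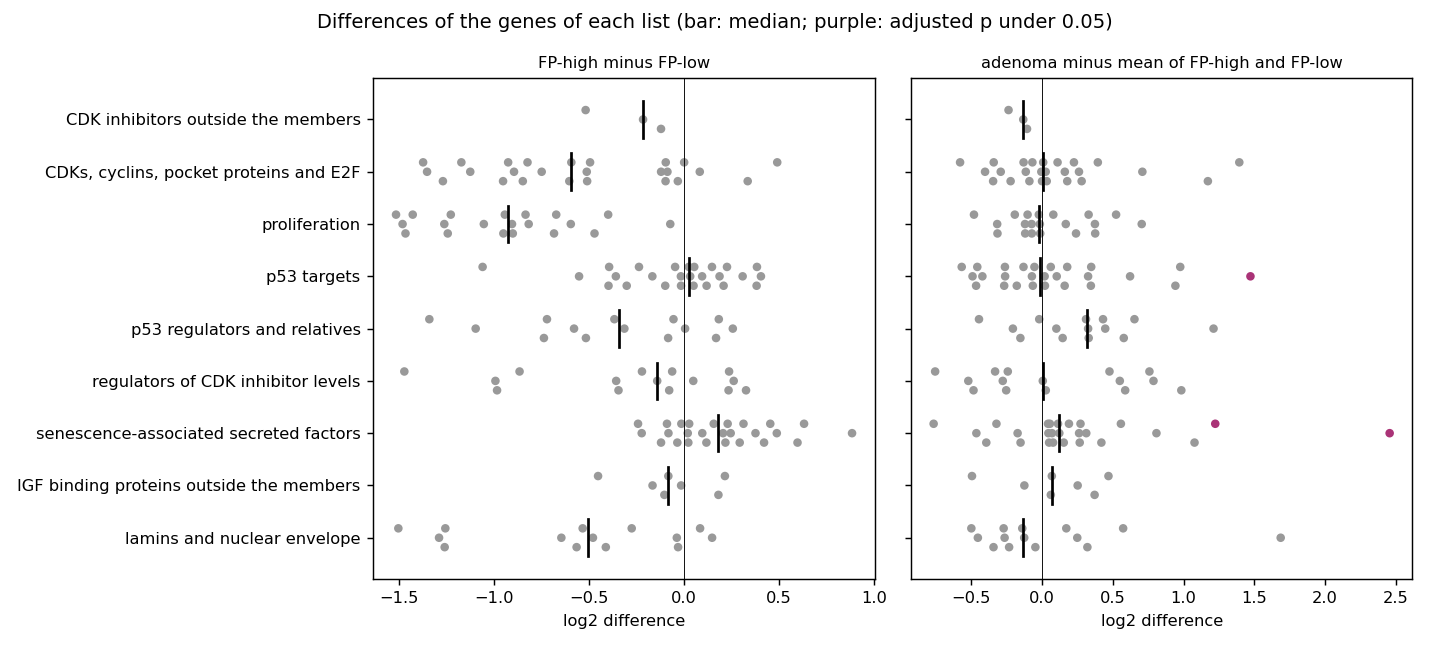
Difference of mean log2 level (horizontal axis) for each gene of the 9 lists of related genes (vertical axis), FP-high against FP-low on the left and adenoma against the mean of the normal groups on the right; points are genes, black bars list medians, and purple marks an adjusted p under 0.05. The purple points are Plk2, Mmp10 and Fn1 on the right (1.47, 2.46 and 1.22), and the proliferation median on the left is -0.92.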

How the data were processed

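RNA was extracted from crypts picked with glass capillaries of 40 µm diameter and amplified before labelling, per the labels' protocols; 13 samples gave 1 array each. The table holds 35556 probe sets as log2 levels, made by the authors with Affymetrix Command Console, per the design text, and with Expression Console and Transcriptome Analysis Console, per the submitters' processing notes. Not given in the sources used here: their versions, background correction, normalization and summarisation. That the scale is log2 rests on the values' range, and no detection calls were used. The number of arrays limits the precision.

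Group means over all 13 arrays were fitted with lmFit and tested with eBayes of limma 3.58.1 (R 4.3.3; two-sided, without covariate, filter or further normalization) on the 23410 probe sets with at least 1 gene symbol in the platform annotation, with Benjamini and Hochberg's adjustment over all of them. The fit was tested on simulated data. The genes and lists were chosen with earlier results of these data known. Named from each list were up to 3 called genes per direction and comparison, or the gene with the smallest p; list genes were read on their brightest probe set with 1 symbol. Alternatives were quantile normalization, array weights, the replicate number as a block, the compared groups alone, a filter on low levels, all rows, an intensity trend, the mean of a gene's probe sets and leaving out each array; Xist status as a covariate and the lists without FP-high replicate 1 were chosen after seeing the data.

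Replicate numbers were checked as pairs: deviations of same-numbered FP-high and adenoma arrays from their group means correlated at 0.2325, 0.1025 and 0.2195, over the bound of 0.1, while those of pairs that hold an FP-low array lay between -0.3605 and 0.1777. The labels give no pairing. Xist read 2.65 to 3.61 in FP-high replicates 1 to 3 and 8.88 to 9.71 in adenoma replicates 1 to 3. Same-numbered arrays of these groups thus differed in Xist status, so the check is not read as a pairing by animal. What the replicate number stands for is not known, also where it was used as a block.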

Additional observations from a re-analysis of the deposited data

Results flagged for a closer look

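In the dimmer Cdkn1b probe set, FP-high replicate 2 read 5.84 on the log2 scale, while the nearest of the other 3 FP-high arrays read 6.70; this gap was 0.873 of the range of the group. It was the only array set apart in this way among 16 sets of values (8 probe sets in the FP-low and FP-high groups), where chance sets apart about 1 in 20. The brighter Cdkn1b probe set was lowest in FP-high replicate 1 (7.53) rather than replicate 2 (9.28).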

How the results depend on the processing

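The number of the 7 genes called was 0 for FP-high against FP-low, 1 for adenoma against FP-low, 0 for adenoma against FP-high and 1 for adenoma against the normal mean. Array weights gave 3, 1 and 2 in the adenoma comparisons in that order, and fitting only the groups compared gave 2 for adenoma against FP-low. With array weights 3.71%, 2.54% and 4.93% of all probe sets passed in the adenoma comparisons, against 0.551%, 0.765% and 0.91% in the main fit. The replicate block, all rows and the Xist covariate each gave 0 for adenoma against FP-low and against the normal mean. The block changed no other call; Igfbp7 against the normal mean was at 0.94 with it (adjusted p = 0.224). Leaving out 1 array gave 0 to 1 calls in FP-high against FP-low, adenoma against FP-low and adenoma against the normal mean, and 0 in adenoma against FP-high. Over all probe sets, the calls for adenoma against FP-low went from 129 to 868 with array weights, 343 with the compared groups alone, 37 with the block and 26 with the Xist covariate. Signs turned in differences that had not passed. FP-high minus FP-low became -0.0265 for Cdkn1c after quantile normalization, 0.026 for Mdm2 with array weights and -0.2032 for Cdkn2b with the block. With the Xist covariate Cdkn1b became -0.5006 for adenoma minus FP-low and -0.0197 for adenoma minus the normal mean, and Lmnb1 became 0.3205 for adenoma minus FP-high. With 1 array left out, Lmnb1 in adenoma minus FP-high ran from -0.306 to 0.2884, and FP-high minus FP-low ran from -0.2091 to 0.2256 for Cdkn2b, -0.2704 to 0.0322 for Mdm2 and -0.028 to 0.1018 for Cdkn1c. The cause of these changes was not tested. Cdkn1c and Cdkn2a had no value under the filter on low levels. Without detection calls, levels near the array medians cannot be read against background.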
